A study of Mus musculus with 16 samples.

Results

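The response of mouse epidermis to 15 weeks of UVB was read from 4 RNA sequencing libraries of the 16 in the series. The 2 UVB libraries came from female SKH-1 mice that had received 60 mJ/cm2 of UVB 2 times per week, and the 2 control libraries from female SKH-1 mice with no agent. The libraries were chosen by their labels alone, which give epidermis as the source and 15 weeks as the duration for all 4. SKH-1 is a hairless, immunocompetent mouse stock whose follicles stop making a normal coat after the first hair cycle, and it is the usual model of UVB skin cancer. The labels give neither the age of the mice nor how many contributed to a library. A further 4 libraries of UVB and control epidermis at week 2, and 4 at week 25, were used to estimate the spread between replicates and to set the week 15 change beside those of the other weeks. Replicates are numbered 0 and 1, as in the labels.

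UVB damages DNA in keratinocytes directly, chiefly by joining neighbouring pyrimidines, and the cells answer through p53, excision repair, cell death and a wave of division that thickens the epidermis. Keratinocytes are also sentinel cells. Damaged nucleic acids in the cytosol can switch on interferon signalling through sensors such as STING, and the keratinocytes release cytokines and chemokines that draw in myeloid cells. Mouse epidermis additionally holds 2 resident immune populations, Langerhans cells and dendritic epidermal T cells, and the hair follicle, whose matrix makes the hair keratins.

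Each library held 6211325 (UVB 0), 6363746 (UVB 1), 5619514 (control 0) or 6155929 (control 1) gene counts. The keratinocyte markers were present at like levels: Krt14, a keratin of the basal layer, stood at 477 and 480 CPM (gene counts scaled to the library's effective size) in the UVB libraries and 411 and 445 CPM in the controls. The 10 keratinocyte markers summed to 4000 and 4155 CPM in UVB and 4169 and 4184 CPM in control. Duplicate reads had been removed before counting, and the highest gene held 1.96 to 1.99 counts per base of exon in each of the 4 libraries. Krt14 and Krt1 were near that ceiling, so changes of the most abundant keratins may be understated. The 2 controls differed from each other more than the 2 UVB libraries did, with 312 genes over 2-fold apart between the UVB libraries and 956 between the controls. Control 1 held more fibroblast marker RNA. Over 15 markers it was 125 and 131 CPM in UVB, 88.7 CPM in control 0 and 179 CPM in control 1. Control 1 also held more skeletal muscle RNA (29.6 and 29.8 CPM in UVB, against 29.1 and 60.0 CPM in control). Its adipocyte RNA was higher too (81.5 and 81.4 CPM in UVB, against 93.2 and 162 CPM in control). Control 0 held more hair RNA, given below. The part of these differences in the results was not tested.

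Of 24421 genes in the table, 13478 had enough counts to be tested, and 471 of these (3.49%) differed between UVB and control epidermis at an adjusted p under 0.05 by edgeR's quasi-likelihood test. UVB epidermis was higher for 250 genes (1.85% of those tested) and lower for 221 (1.64%). These shares are the background for the counts of called list members given below. The called changes were mostly large: 231 of the higher and 187 of the lower genes moved at least 2-fold (3.10% of tested genes together), and 72 and 55 at least 8-fold. Genes that rose tended to be scarce in control skin, with a median of 5.10 CPM there. Genes that fell had a median of 50.6 CPM and all tested genes 37.1 CPM. This is partly built in, because the filter can keep a gene through its UVB counts alone. A call higher also favours genes with low control values. Both UVB libraries lay on one side of both controls for 52.4% of all tested genes, so a gap between the arms is by itself common here. The median log2 change over all tested genes was -0.01.

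**Figure D1:**
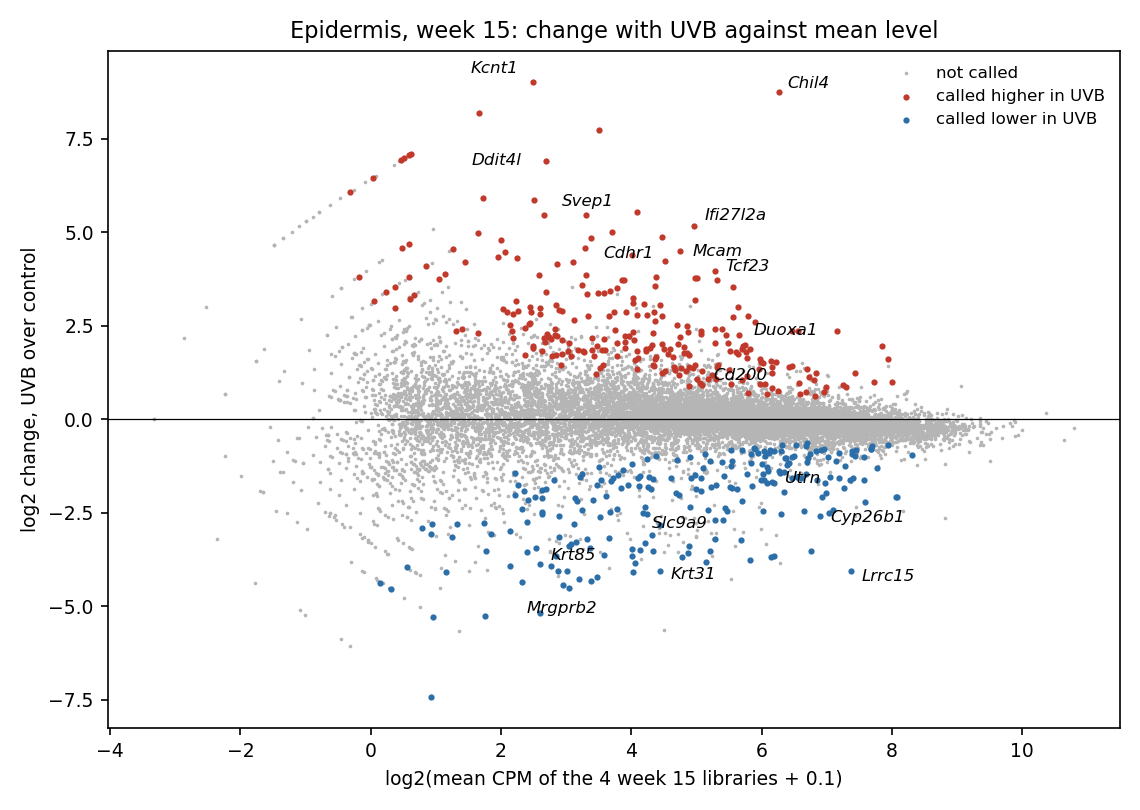
Log2 change with UVB (vertical) against the log2 of the mean level over the 4 week 15 libraries plus 0.1 CPM (horizontal), 1 point per tested gene; 250 genes called higher in UVB are red, 221 called lower are blue, and the rest grey. The called rises reach far up among genes of low level, and the called falls include genes of high level such as Lrrc15 and Cyp26b1.

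The count of calls rested heavily on single libraries. It was 140 without UVB 0, 26 without UVB 1, 31 without control 0 and 1463 without control 1, where the lone library left in an arm is assumed to vary as the other groups do. No gene called in the full comparison and still tested changed direction in any of these. They reuse the same libraries, so a change of direction was unlikely. Of the 125 called genes that were followed one by one because they are named here, 49 stayed called without UVB 0, 20 without UVB 1, 23 without control 0 and 113 without control 1. Only 17 of the 125 stayed called whichever of the 4 libraries was left out, and these are described first.

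The 17 genes comprised 16 that rose and 1 that fell. Among them were genes of prostaglandin breakdown (Hpgd), hydrogen peroxide release (Duoxa1), protease inhibition (Stfa2, Spink7), myeloid restraint (Cd200), monocyte attraction (Ccl7) and DNA methylation (Dnmt3l). The transcription factor gene Tcf23, a helix-loop-helix protein, had the smallest p of all. It stood at 62.8 and 83.7 CPM in UVB epidermis and 3.03 and 6.11 CPM in control epidermis. Its log2 change was 3.97 ± 0.34 (SE; edgeR adjusted p = 0.00124). Cdhr1, a cadherin best known from photoreceptors, had 27.8 and 57.6 CPM in UVB and 1.13 and 1.68 CPM in control, a log2 change of 4.88 ± 0.44 (edgeR adjusted p = 0.00124). For both genes the UVB values lay far above the control values.

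Mcam, the adhesion molecule CD146, was at 60.5 and 41.7 CPM in UVB and 1.70 and 2.75 CPM in control epidermis (log2 change 4.49 ± 0.47, edgeR adjusted p = 0.00209). Svep1, a large secreted adhesion protein of the matrix, was at 23.5 and 42.6 CPM in UVB and 1.32 and 0.153 CPM in control (5.54 ± 0.71, adjusted p = 0.00511). Igfbp6, a secreted protein that binds insulin-like growth factor II, was at 11.8 and 20.4 CPM in UVB and 0.945 and 0.764 CPM in control (4.21 ± 0.50, adjusted p = 0.00366). These 3 genes were close to silent in control epidermis. AI414108, a gene of unassigned function, showed the same form, with 21.6 and 28.6 CPM in UVB and 0.567 and 0.917 CPM in control (5.02 ± 0.50, adjusted p = 0.00186). Ddit4l, a stress-induced inhibitor of mTOR signalling, had 17.1 and 8.23 CPM in UVB and 0.189 and 0 CPM in control, where a single count was seen (log2 change 6.90 ± 0.85, adjusted p = 0.00414).

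Cd200, a surface protein that quiets myeloid cells carrying its receptor, had 61.6 and 81.5 CPM in UVB and 20.6 and 19.6 CPM in control (log2 change 1.83 ± 0.19, edgeR adjusted p = 0.00209). Dnmt3l, the catalytically inactive partner of the de novo DNA methyltransferases, had 15.4 and 21.3 CPM in UVB and 0.945 and 1.53 CPM in control (3.85 ± 0.39, adjusted p = 0.00186). Dnmt3l was the sole called gene among 16 tested genes of DNA methylation; Dnmt3a, a de novo methyltransferase, was at 34.0 and 27.0 CPM in UVB and 47.5 and 49.9 CPM in control (-0.67 ± 0.22, adjusted p = 0.121), which did not pass. The gene that fell was Psd3, an exchange factor for the small GTPase ARF6. It was at 14.3 and 14.1 CPM in UVB and 62.6 and 43.7 CPM in control (-1.90 ± 0.22, adjusted p = 0.00299).

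**Figure D2:**
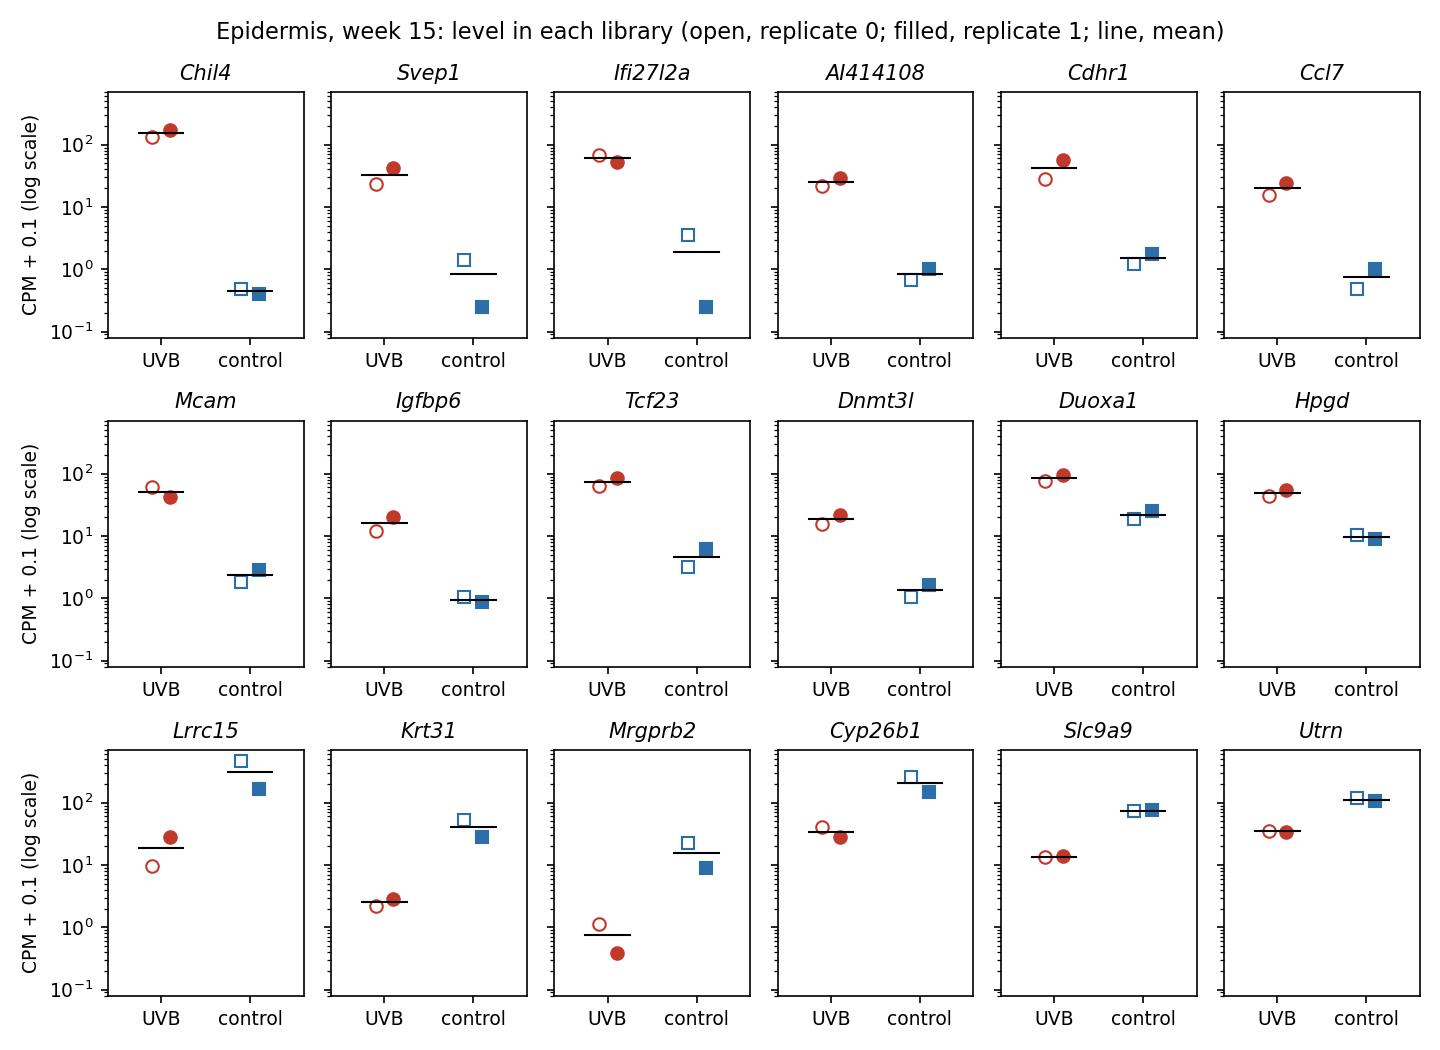
Level of 18 genes in each week 15 library, as CPM plus 0.1 on a log axis; UVB libraries are red circles and controls blue squares, open for replicate 0 and filled for replicate 1, and the line is the mean of the 2 libraries. In all 18 panels the UVB and control values do not overlap, as for 52.4% of all tested genes. Separate arms were a condition of naming by largest change or smallest p, so the gap is not further evidence. The top and middle rows are genes that rose and the bottom row genes that fell.

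Among the largest rises was that of Chil4, a chitinase-like protein (Ym2) made in mouse type 2 inflammation. Chil4 stood at 134 and 174 CPM in UVB epidermis and 0.378 and 0.305 CPM in control epidermis, or 914 and 1185 counts against 2 and 2. Its log2 change was 8.75 ± 1.33 (edgeR adjusted p = 0.011), and the call was lost without UVB 1 and without control 0. Its close relative Chil3 was not tested, with 1 and 1 counts in UVB and 2 and 0 in control, so few reads were assigned to it. Kcnt1, a sodium-activated potassium channel, had 14.9 and 7.20 CPM in UVB and no count in either control, at least 43.5-fold higher when the controls are set at a floor of 3 counts over the group (adjusted p = 0.015, lost without UVB 1 and without control 0). In bulk tissue a change in the number of cells that express a gene and a change in RNA per cell cannot be told apart, here or below.

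Interferon-stimulated genes moved together and in 1 direction. All 36 genes of the list were tested, all 36 had a positive log2 change, and 16 were called higher in UVB and none lower, against 1.85% of all tested genes called higher. The list's median log2 change was 2.34. In 35 of the 36 genes both UVB libraries were above both controls, against 25.9% of all tested genes. Their summed level was 948 and 1429 CPM in UVB and 273 and 348 CPM in control. The number called was 9 without UVB 0, 1 without UVB 1, 1 without control 0 and 14 without control 1, while the median log2 change stayed between 1.95 and 2.56 in these 4 comparisons.

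The oligoadenylate synthetases make the second messenger that activates RNase L on double-stranded RNA, and 7 of their genes were among the 16 calls. Oas2 stood at 51.9 and 95.3 CPM in UVB and 3.78 and 7.18 CPM in control (log2 change 3.72 ± 0.60, edgeR adjusted p = 0.0148). Oas3 stood at 25.5 and 40.7 CPM in UVB and 2.46 and 6.87 CPM in control (2.79 ± 0.44, adjusted p = 0.0122). Oas1a, Oas1b, Oas1g, Oasl1 and Oasl2 were also called higher, though reads of these similar genes may be shared among them. Ifi27l2a, a small interferon-induced membrane protein, was at 68.7 and 52.3 CPM in UVB and 3.40 and 0.153 CPM in control (5.17 ± 0.73, adjusted p = 0.00807). Its exons overlap those of the neighbouring gene Ifi27 by up to 103 bases. Zbp1, a sensor of Z-form nucleic acid that can trigger necroptosis, was at 13.4 and 24.8 CPM in UVB and 0 and 0.764 CPM in control (5.45 ± 1.01, adjusted p = 0.0242). Ifi44 was at 7.65 and 16.6 CPM in UVB and 0.378 and 0.153 CPM in control (5.46 ± 1.0, adjusted p = 0.0226), and Ifi35 at 91.1 and 117 CPM in UVB and 32.7 and 45.7 CPM in control (1.40 ± 0.22, adjusted p = 0.0122). The remaining called members were Bst2, Lgals3bp, Mx2, Phf11d and Samd9l. Of the interferon-stimulated genes given with values here, Ifi27l2a alone kept its call whichever library was left out; the others lost it without UVB 1 and without control 0.

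Not every classical member responded to the same degree. Isg15, the ubiquitin-like modifier, was at 42.1 and 57.7 CPM in UVB and 30.4 and 25.5 CPM in control, a log2 change of 0.84 ± 0.55 that did not pass (edgeR adjusted p = 0.435); it was picked after its value was seen. Irf7, which drives the second wave of interferon production, had overlapping arms, at 75.0 and 66.8 CPM in UVB and 70.7 and 56.8 CPM in control (0.16 ± 0.28, adjusted p = 0.808), and was likewise picked afterwards. Upstream, the list of sensors and signalling genes moved less, with a median log2 change of 0.33. Of its 27 tested members 3 were called higher and none lower, against 1.85% of all tested genes called higher. Among the 3 were Dhx58, the RNA helicase LGP2, and Tmem173, which encodes the DNA-sensing adaptor STING. Tmem173 was at 7.36 and 14.7 CPM in UVB and 2.46 and 2.44 CPM in control (2.16 ± 0.47, edgeR adjusted p = 0.0377). Tmem173 did not stay called without UVB 1 or without either control. Ifnb1 and Ifne, which encode interferons, had no count in any of the 4 libraries. Of the other interferon genes in the list, Ifng was tested and not called, and Ifnk had counts but too few to be tested.

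Genes of antigen presentation and the interferon-inducible GTPases had a median log2 change of 0.72. Among 21 tested, 4 were called higher and none lower, against 1.85% of all tested genes called higher. Gbp2 and Gbp3, guanylate-binding proteins that attack vacuoles of intracellular microbes, were among them. Gbp2 was at 38.1 and 74.9 CPM in UVB and 4.54 and 7.79 CPM in control (3.18 ± 0.72, edgeR adjusted p = 0.0412). Iigp1, an immunity-related GTPase, was at 32.7 and 54.4 CPM in UVB and 0.945 and 3.51 CPM in control (4.23 ± 0.87, adjusted p = 0.0317). Psmb10, a subunit of the immunoproteasome, was at 47.5 and 70.7 CPM in UVB and 16.4 and 26.1 CPM in control (1.47 ± 0.27, adjusted p = 0.0219). In all of these UVB 1 was the higher UVB library. The list kept 1 call without UVB 0, none without UVB 1, none without control 0, and had 8 without control 1.

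Promoter sequence was set beside these genes because the interferon-stimulated response element (ISRE) is the site where ISGF3 and interferon regulatory factors bind. The motif, GAAA followed by any 2 bases and a further GAAA, was searched on both strands in RefSeq promoter windows (build GRCm38.p6) of 300 bases, 250 before and 50 after each start. It occurred in 3.44% of 32851 such windows, and in 3.58% of the tested genes with a window. Of the 21 tested genes of the antigen presentation and GTPase list, 18 had a window and 10 of these (55.6%) held the motif. Of the called members, Gbp2 and Gbp3 held it and Psmb10 did not, and Iigp1 had no window. For the interferon-stimulated list 26 of 36 genes had a window, too small a part of the list to give a share over it. The motif was held by 4 of the 11 called members with a window and by 8 of the 15 that were not called, so the windows printed are those of the called genes that hold it. The windows run 5′ to 3′ on the gene's strand and end at or before the start; capitals mark the motif, which reads in reverse complement in Gbp2 and Gbp3, and runs of overlapping matches are joined.
Oas3: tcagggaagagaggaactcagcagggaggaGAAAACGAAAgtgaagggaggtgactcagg
Oas1a: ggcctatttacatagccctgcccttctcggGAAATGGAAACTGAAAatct
Oas1g: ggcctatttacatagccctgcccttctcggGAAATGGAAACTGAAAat
Bst2: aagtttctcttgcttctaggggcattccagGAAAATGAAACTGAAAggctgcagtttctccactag
Cxcl10: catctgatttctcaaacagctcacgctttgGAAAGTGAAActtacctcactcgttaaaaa
Gbp2: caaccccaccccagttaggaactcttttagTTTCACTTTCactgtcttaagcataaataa
Gbp3: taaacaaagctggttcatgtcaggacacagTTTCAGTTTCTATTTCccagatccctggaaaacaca
The Oas3 window is chr5:120777705-120777764 (minus strand), with its motif 75 to 66 bases before the start. The Cxcl10 window is chr5:92349073-92349132 (minus strand), with the motif 213 to 204 bases before the start. The Oas1a and Oas1g windows, chr5:120907526-120907575 and chr5:120887614-120887661 (both minus strand), read the same over the shared stretch, as fits near-identical genes. Bst2 lies at chr8:71537567-71537632 (minus strand), Gbp2 at chr3:142620574-142620633 and Gbp3 at chr3:142559969-142560034 (both plus strand). The letters are a description of these windows; binding was not measured.

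**Figure D3:**
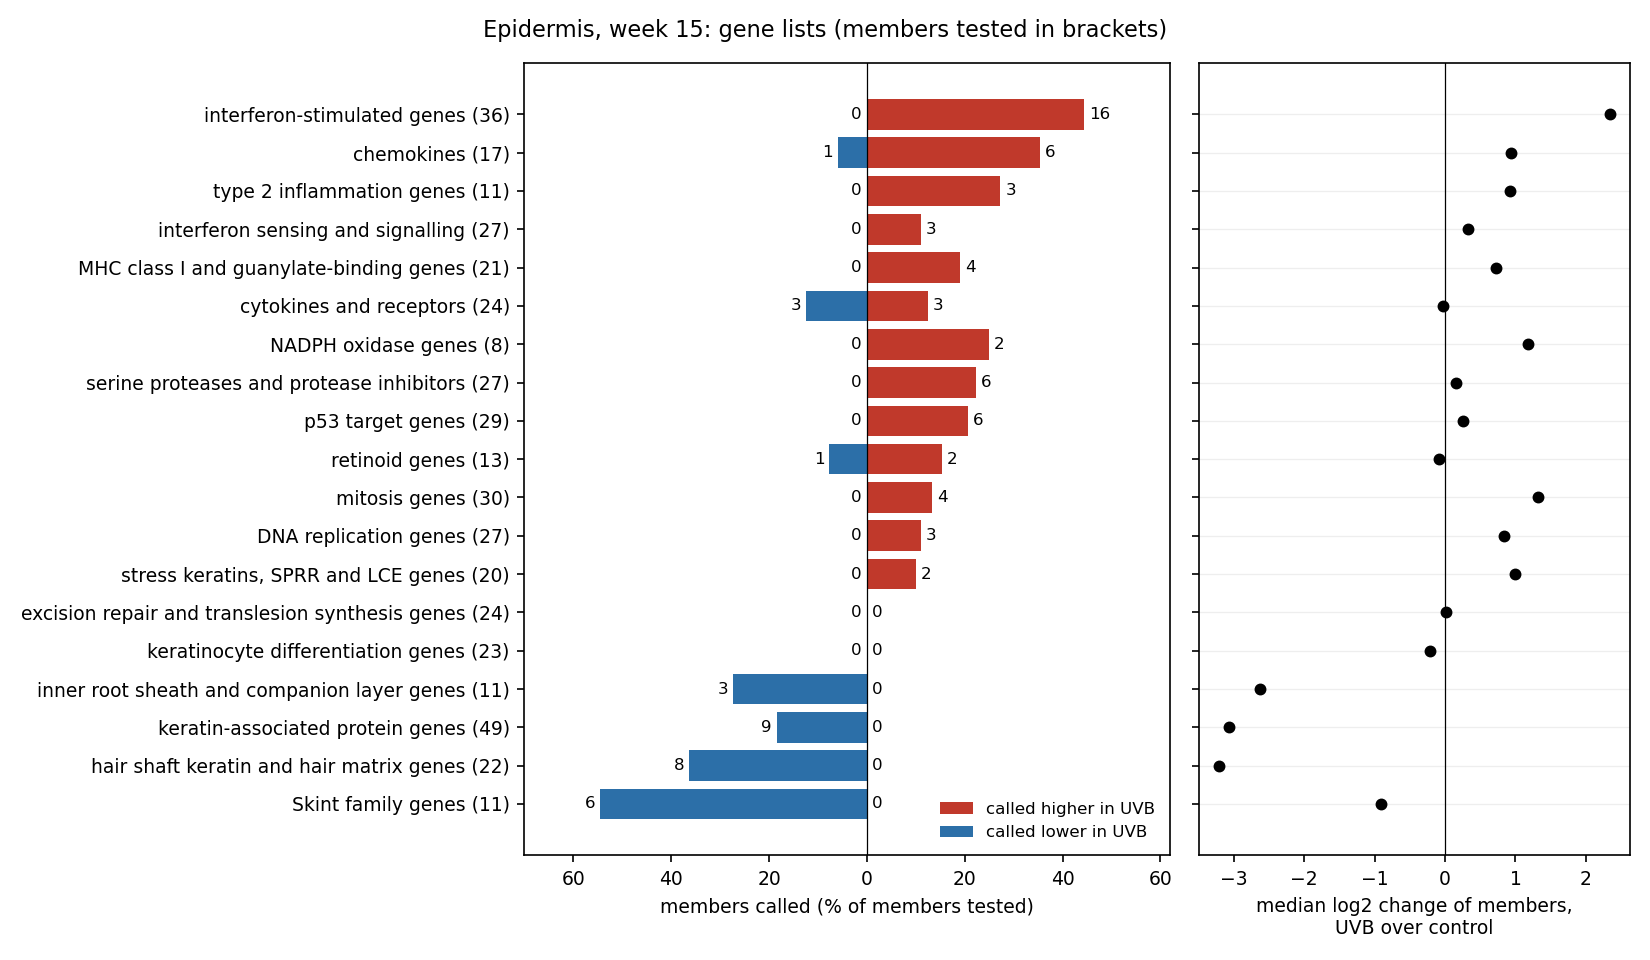
Gene lists at week 15. Left, the percentage of tested members called higher (red, rightward) or lower (blue, leftward) in UVB, with the number called beside each bar and the number tested in brackets; right, the median log2 change of the tested members. The interferon-stimulated list has 16 calls higher and none lower, the 3 hair lists have 8, 9 and 3 lower and none higher, and the repair and differentiation lists have none.

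Chemokine genes that were called were mostly higher. Of 27 chemokine genes 17 were tested, of which 6 were called higher and 1 lower, against 1.85% and 1.64% of all tested genes. The median log2 change of the 17 was 0.93. The monocyte and eosinophil attractants Ccl2, Ccl7, Ccl8 and Ccl11 and the CXCR3 ligands Cxcl9 and Cxcl10 rose. Ccl7 was at 15.4 and 24.4 CPM in UVB and 0.378 and 0.917 CPM in control (log2 change 4.85 ± 0.57, edgeR adjusted p = 0.00366). Ccl8 was at 79.9 and 93.6 CPM in UVB and 1.51 and 12.8 CPM in control (3.54 ± 0.86, adjusted p = 0.0491), so its 2 controls differed severalfold. Cxcl10 was at 30.7 and 45.0 CPM in UVB and 1.51 and 4.74 CPM in control (3.55 ± 0.62, adjusted p = 0.0186), and Cxcl9 at 45.3 and 72.1 CPM in UVB and 2.08 and 6.26 CPM in control (3.77 ± 0.80, adjusted p = 0.035). Ccl6, a myeloid chemokine of mice, fell to 3.68 and 2.64 CPM in UVB, against 20.6 and 8.55 CPM in control (-2.19 ± 0.50, adjusted p = 0.043). The arms of each of these genes were separate, as they were for 52.4% of all tested genes. The number called higher was 3 without UVB 0, 1 without UVB 1, 1 without control 0 and 7 without control 1, the 1 being Ccl7 each time.

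Few markers of myeloid cells were called. Of 13 tested macrophage and monocyte markers 2 were called higher, against 1.85% of all tested genes. They were the scavenger receptor gene Cd163 and Ccr2, the receptor for CCL2 and CCL7. All 15 markers of the list summed to 94.2 and 103 CPM in UVB and 56.7 and 61.4 CPM in control. The 13 tested had a median log2 change of 1.94. The list held 1 call without UVB 0, none without UVB 1 or control 0, and 5 without control 1. Cd163 was at 4.56 and 11.2 CPM in UVB and 0.189 and 0.458 CPM in control (4.47 ± 0.71, edgeR adjusted p = 0.0144), and lost its call without UVB 1 and without control 0. The 14 Langerhans and dendritic cell markers summed to 1065 and 1078 CPM in UVB and 685 and 864 CPM in control. Of the 12 tested, none was called by edgeR, 2 were called higher by DESeq2 and 5 were higher at an unadjusted p under 0.05. Of 5 tested neutrophil markers Trem1 alone was called, with 15 and 10 counts in UVB and none in control. The part of these cells in the chemokine, cytokine and interferon changes was not tested.

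Cytokine genes moved in both directions, with a median log2 change of -0.03. Among 24 tested, 3 were called higher and 3 lower, against 1.85% and 1.64% of all tested genes. Il19, an IL-20 family cytokine of stressed keratinocytes, was at 6.47 and 15.6 CPM in UVB and 0 and 0.305 CPM in control (log2 change 5.87 ± 1.16, edgeR adjusted p = 0.0283). Il33, an alarmin held in keratinocyte nuclei, was at 82.1 and 131 CPM in UVB and 26.3 and 44.9 CPM in control (1.57 ± 0.35, adjusted p = 0.0384). Il1b was at 10.2 and 10.7 CPM in UVB and 2.84 and 3.51 CPM in control (1.70 ± 0.32, adjusted p = 0.0243). The 3 that fell were the IL-1 decoy receptor gene Il1r2, the IL-1 receptor antagonist gene Il1rn and Il34, the keratinocyte cytokine that maintains Langerhans cells. Il1r2 was at 38.1 and 31.1 CPM in UVB and 114 and 76.8 CPM in control (-1.46 ± 0.27, adjusted p = 0.0244), and Il1rn at 188 and 185 CPM in UVB and 348 and 257 CPM in control (-0.70 ± 0.16, adjusted p = 0.0449). Il34 was at 54.0 and 47.7 CPM in UVB and 102 and 76.8 CPM in control (-0.81 ± 0.17, adjusted p = 0.0323). Of these 6, Il19 alone stayed called without UVB 0, and none did without UVB 1 or without control 0.

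Among type 2 inflammation genes 11 of 16 were tested and 3 were called higher, against 1.85% of all tested genes. The 3 were Chil4, Ccl8 and Il4ra, the shared receptor chain for IL-4 and IL-13. Il4ra was at 169 and 229 CPM in UVB and 120 and 91.2 CPM in control (log2 change 0.92 ± 0.19, edgeR adjusted p = 0.0345). No member was lower; 2 were called without UVB 0, 0 without UVB 1, 0 without control 0 and 3 without control 1. In the prostaglandin and leukotriene list the called gene was Hpgd, which inactivates prostaglandin E2. Hpgd stood at 43.1 and 54.4 CPM in UVB and 10.4 and 9.01 CPM in control (2.33 ± 0.27, adjusted p = 0.00366). Ptgs2, the inducible cyclooxygenase COX-2 upstream of it, was at 10.7 and 11.9 CPM in UVB and 1.70 and 2.14 CPM in control (2.54 ± 0.65), which missed the threshold (adjusted p = 0.0571). Both genes had separate arms, as did 52.4% of all tested genes.

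The dual oxidase Duox1 releases hydrogen peroxide at the cell surface and needs Duoxa1 to leave the endoplasmic reticulum, and both rose. Duoxa1 was at 77.1 and 94.0 CPM in UVB and 18.3 and 24.7 CPM in control (log2 change 1.98 ± 0.23, edgeR adjusted p = 0.00299). Duox1 was at 68.6 and 85.8 CPM in UVB and 18.2 and 27.3 CPM in control (1.76 ± 0.37, adjusted p = 0.0328), and kept its call only without control 1. The 2 genes are neighbours on chromosome 2. No other NADPH oxidase gene of the 8 tested was called. Of all tested genes 1.85% were called higher.

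Genes of division were higher in UVB, but how many were called depended on which control was used. All 30 mitosis genes had a positive log2 change with a median of 1.33, and 4 were called (Aurka, Kif11, Kif20a and Plk1). All 27 DNA replication genes were positive with a median of 0.84, and 3 were called (Rrm2, E2f8 and Ccne1). Of all tested genes 1.85% were called higher. The mitosis genes summed to 1428 and 1628 CPM in UVB, 439 CPM in control 0 and 967 CPM in control 1. Without control 1 the calls were 27 for mitosis and 13 for replication; without control 0 both were 0. Mki67, the proliferation marker, showed the same spread, at 170 and 206 CPM in UVB, 70.1 CPM in control 0 and 134 CPM in control 1 (log2 change 0.88 ± 0.26, edgeR adjusted p = 0.0864). Rrm2, the regulated subunit of ribonucleotide reductase, had closer controls, with 84.4 and 94.6 CPM in UVB and 32.1 and 38.5 CPM in control (1.34 ± 0.18, adjusted p = 0.00704). Plk1, a kinase of mitotic entry, was at 22.8 and 26.6 CPM in UVB and 2.27 and 8.10 CPM in control (2.22 ± 0.53, adjusted p = 0.0478). Exons of Kif20a overlap those of Cdc23 and Brd8, so its value is less certain.

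Promoter windows of these lists were searched for 2 cell cycle elements. The cell cycle genes homology region TTTGAA, where the DREAM and MMB complexes dock, was present on either strand in 18 of 25 mitosis genes with a window (72.0%), against 17.9% of all windows and 14.6% of tested genes with a window. The E2F motif TTTNNCGC was present in 9 of 22 replication genes with a window (40.9%), against 5.17% of all windows and 9.41% of tested genes with a window. All 3 called mitosis genes with a window held TTTGAA, as did 15 of the 22 that were not called. None of the 3 called replication genes held TTTNNCGC, whereas 9 of the 19 that were not called did. These matches describe letters only.

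Targets of p53 were called in part, against a background of 1.85% of all tested genes called higher. Of 29 tested, 6 rose and none fell, with a median log2 change of 0.25; the calls were 2 without UVB 0, 1 without UVB 1, 0 without control 0 and 7 without control 1. Ccng1, cyclin G1, was at 172 and 127 CPM in UVB and 56.2 and 60.5 CPM in control (1.36 ± 0.20, edgeR adjusted p = 0.011). Eda2r, a death-domain receptor of the TNF receptor family, was at 30.9 and 32.5 CPM in UVB and 6.43 and 9.47 CPM in control (1.98 ± 0.32, adjusted p = 0.0143). Pmaip1, which encodes the pro-apoptotic protein NOXA, was at 68.3 and 98.4 CPM in UVB and 18.9 and 34.2 CPM in control (1.64 ± 0.31, adjusted p = 0.0257). Apaf1, the scaffold of the apoptosome, and Gtse1 and Psrc1, which act in mitosis, were the other 3. The best-known targets did not follow: Cdkn1a, the cell cycle inhibitor p21, was at 315 and 299 CPM in UVB and 328 and 292 CPM in control (-0.01 ± 0.14), and Mdm2, the ubiquitin ligase of p53, at 155 and 138 CPM in UVB and 134 and 121 CPM in control (0.20 ± 0.16). Neither passed (adjusted p = 0.975 and 0.531), both were picked after their values were seen, and the sign of the Cdkn1a change turned with the scaling. None of 24 tested genes of excision repair and translesion synthesis was called by edgeR (3 higher and 1 lower at an unadjusted p under 0.05, and 1 lower by DESeq2), and their median log2 change was 0.01. Lig3 and Polk had the smallest p among them (adjusted p = 0.069 and 0.13).

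Among barrier genes the calls were of protease inhibitors and a few late envelope genes. None of 23 differentiation genes was called by edgeR (1 higher and 2 lower at an unadjusted p under 0.05, and the same counts by DESeq2), with a median log2 change of -0.22; the most abundant of them stand near the ceiling of counts per base. Krt6a and Krt16, keratins of stressed epidermis, were at 351 and 364 CPM and 353 and 354 CPM in UVB and 250 and 198 CPM and 243 and 245 CPM in control (0.68 ± 0.25 and 0.53 ± 0.17), and neither passed (edgeR adjusted p = 0.148 and 0.105). In the list of stress keratins, small proline-rich and late envelope genes 2 of 20 were called, Lce3d and Lce3e, whose family is induced on barrier injury. Lce3e was at 20.2 and 32.6 CPM in UVB and 3.78 and 3.36 CPM in control (2.88 ± 0.54, adjusted p = 0.0244). The median of that list was 1.0 on the log2 scale, and 16 of its 20 members had both UVB libraries above both controls, against 25.9% of all tested genes. It held 1 call without UVB 0, none without UVB 1 or without control 0, and 1 without control 1.

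Among kallikreins, other serine proteases and protease inhibitors 6 of 27 were called higher and none lower, against 1.85% of all tested genes called higher. All 6 were inhibitors. Spink7 and Spink12 encode Kazal-type inhibitors of serine proteases. Spink7 was at 38.0 and 38.9 CPM in UVB and 3.59 and 1.99 CPM in control (log2 change 3.80 ± 0.51, edgeR adjusted p = 0.0067), and Spink12 at 16.9 and 33.1 CPM in UVB and 3.03 and 1.37 CPM in control (3.52 ± 0.47, adjusted p = 0.00668). Serpinb1a, an inhibitor of neutrophil elastase, was at 79.1 and 98.0 CPM in UVB and 8.32 and 13.6 CPM in control (3.0 ± 0.43, adjusted p = 0.00844). Serpinb6c and the stefins Stfa1 and Stfa2, inhibitors of cysteine cathepsins, were the others. Stfa2 was at 75.5 and 74.9 CPM in UVB and 19.9 and 23.4 CPM in control (1.80 ± 0.17, adjusted p = 0.00124). The stefins and serpins lie in clusters of similar genes among which reads can be shared. The list's median log2 change was 0.15, close to that of all tested genes, and it held 4 calls without UVB 0, 2 without UVB 1, 3 without control 0 and 6 without control 1.

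Retinoid genes moved in both directions. Lrat, which esterifies retinol for storage, was at 44.6 and 101 CPM in UVB and 15.3 and 14.8 CPM in control (log2 change 2.27 ± 0.33, edgeR adjusted p = 0.00974). It was 1 of 2 genes called higher among 13 tested, and 1 was called lower, against 1.85% and 1.64% of all tested genes. The 1 called lower was Cyp26b1, the enzyme that degrades retinoic acid, which fell to 40.6 and 27.8 CPM in UVB, against 259 and 151 CPM in control (-2.58 ± 0.33, adjusted p = 0.00545). Lrat lost its call without control 0 and Cyp26b1 without UVB 1. Elsewhere in the epidermis Has3, a hyaluronan synthase, was at 58.0 and 73.9 CPM in UVB and 8.51 and 15.9 CPM in control (2.42 ± 0.42, adjusted p = 0.0185). Tnc, the matrix protein tenascin C, was at 85.6 and 80.1 CPM in UVB and 8.51 and 25.8 CPM in control (2.25 ± 0.46, adjusted p = 0.0317). Gjb6, connexin 30, was at 121 and 171 CPM in UVB and 71.8 and 61.4 CPM in control (1.14 ± 0.25, adjusted p = 0.04), while the tight junction genes Cldn23 and Ocln fell (-1.19 ± 0.26 and -1.04 ± 0.24, adjusted p = 0.0385 and 0.044). Degs2, which makes phytoceramides, was the called member of the barrier lipid list (1.52 ± 0.34, adjusted p = 0.0417; its exons overlap Evl). All 6 of these genes lost their call without UVB 1 and without control 0.

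Hair genes had negative log2 changes throughout the 3 lists, and a part of them was called lower. Of 22 tested genes of the hair shaft and matrix 8 were called lower, of 49 tested keratin-associated proteins (53 in the list) 9 were, and of 11 tested inner root sheath and companion layer genes 3 were, against 1.64% of all tested genes. None of these genes was called higher. The medians were -3.21, -3.07 and -2.63 on the log2 scale. In all 49 tested keratin-associated proteins both UVB libraries were below both controls, against 26.4% of all tested genes. The 53 in the list summed to 167 and 372 CPM in UVB, 2265 CPM in control 0 and 1374 CPM in control 1. Krt31, a hair cortex keratin, was at 2.06 and 2.79 CPM in UVB and 53.3 and 28.3 CPM in control (log2 change -4.06 ± 0.90, edgeR adjusted p = 0.0398). Krt72, a keratin of the inner root sheath, was at 3.97 and 11.5 CPM in UVB and 138 and 73.3 CPM in control (-3.77 ± 0.91, adjusted p = 0.049), and Krtap13-1 at 2.50 and 5.29 CPM in UVB and 67.7 and 33.5 CPM in control (-3.69 ± 0.84, adjusted p = 0.0417). Dsg4, the desmoglein of the hair shaft, was at 0.588 and 1.32 CPM in UVB and 28.2 and 11.2 CPM in control (-4.33 ± 1.05, adjusted p = 0.0493). For each of these control 0 was the highest library. Reads of the keratin-associated proteins may be shared among similar members of the family.

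Without UVB 0, UVB 1 or control 0 none of the 3 lists kept a call, and without control 1 the counts were 13, 18 and 5 for shaft, keratin-associated proteins and inner root sheath. In the same order, the counts called lower were 16, 38 and 9 with only the 4 week 15 libraries. They were 17, 28 and 6 with a replicate block, and 9, 12 and 5 by DESeq2. The follicle's stem cell and hedgehog genes gave no call by edgeR among 11 tested (2 lower at an unadjusted p under 0.05, and 1 lower by DESeq2). The part of the difference between the 2 controls in the hair result was not tested.

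**Figure D4:**
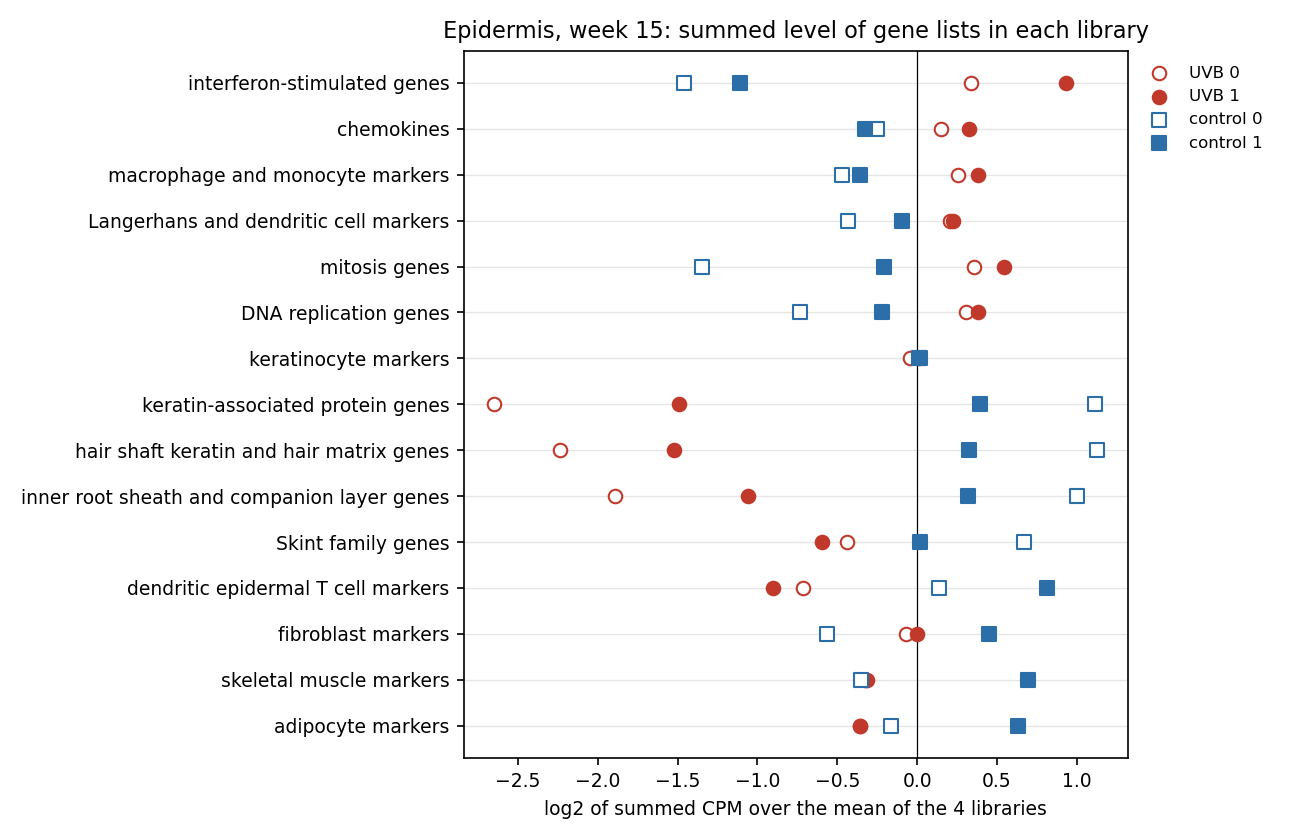
Summed CPM of 15 lists in each week 15 library, as the log2 of the sum over the mean of the 4 libraries; UVB libraries are red circles and controls blue squares, open for replicate 0 and filled for replicate 1. UVB lies above control for the interferon, chemokine, macrophage, Langerhans and division lists and below it for hair, Skint and dendritic epidermal T cell lists. The 2 controls are far apart for the mitosis, fibroblast, muscle and adipocyte lists, and also for the hair, Skint and dendritic epidermal T cell lists.

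The Skint family, whose member Skint1 is needed for the development of dendritic epidermal T cells in the mouse thymus, and the T cell genes themselves held calls in the downward direction. Of 11 Skint genes 6 were called lower (Skint4 to Skint9), against 1.64% of all tested genes, and none higher. The family's median log2 change was -0.92. Skint5 was at 56.0 and 29.7 CPM in UVB and 320 and 143 CPM in control (-2.43 ± 0.42, edgeR adjusted p = 0.0185), and Skint7 at 32.5 and 14 CPM in UVB and 146 and 123 CPM in control (-2.53 ± 0.50, adjusted p = 0.0283). The list held 2 calls without UVB 0, none without UVB 1, none without control 0 and 8 without control 1. Of 11 markers listed for that T cell population, 7 were in the count table and 6 were tested, of which 2 were called lower. Its T cell receptor genes Trdc, Trdv4, Tcrg-V5 and Tcrg-C1 were not in the count table, so they were not measured. Cd7, a T cell surface protein, was at 3.97 and 2.35 CPM in UVB and 13.0 and 26.0 CPM in control (-2.62 ± 0.44, adjusted p = 0.0167), lost without UVB 1. Cd3g, a chain of the T cell receptor complex, was at 10.6 and 6.46 CPM in UVB and 25.7 and 36.0 CPM in control (-1.86 ± 0.39, adjusted p = 0.0328), and lost its call when any 1 library was left out. The 7 markers of that population in the count table summed to 33.4 and 29.4 CPM in UVB and 60.3 and 96.5 CPM in control. In the wider list of T and NK cell markers 1 of 12 tested genes was called lower, Cd3g again, and 1 higher. The background was 1.64% of all tested genes lower and 1.85% higher. The list had 5 positive and 7 negative log2 changes. The one called higher was Cd4, the co-receptor of helper T cells, with 7 and 12 counts in UVB and none in control, at least 5.51-fold higher with the controls at the floor (edgeR adjusted p = 0.0399), and it lost its call when any 1 library was left out.

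Some falls touched markers of scarce cells. Mrgprb2, the receptor through which cationic compounds activate mouse connective tissue mast cells, was at 1.03 and 0.294 CPM in UVB and 22.1 and 9.01 CPM in control (log2 change -4.50 ± 1.07, edgeR adjusted p = 0.0478). The mast cell genes Fcer1a, Ms4a2 and Mrgprb1 had no count in any of the 4 libraries, and Cpa3 had at most 1 in a library. Of the 3 tested mast cell markers, Tpsab1, a mast cell tryptase, had the other direction, with 6 and 2 counts in UVB and none in control (edgeR adjusted p = 0.128), and Kit, a growth factor receptor, had overlapping arms. Mitf, the master regulator of melanocytes, was at 9.86 and 9.99 CPM in UVB and 40.5 and 20.3 CPM in control (-1.61 ± 0.37, adjusted p = 0.0423), while Pmel, a melanosome protein, was at 6.77 and 5.14 CPM in UVB and 2.46 and 5.65 CPM in control, with overlapping arms. Flt1, a VEGF receptor of endothelium, was at 1.47 and 1.91 CPM in UVB and 30.1 and 7.33 CPM in control (-3.44 ± 0.67, adjusted p = 0.0275). The 6 tested endothelial and mural markers were split, 3 with positive and 3 with negative log2 changes and a median of -0.01; by DESeq2 1 was called higher and 1 lower. Among the 12 tested fibroblast markers Dcn and Col6a1 were called lower and Fbln1 higher, against 1.64% and 1.85% of all tested genes. The fibroblast sums differed more between the 2 controls than between the arms. Fbln1, fibulin 1, was at 37.1 and 51.0 CPM in UVB and 7.37 and 11.6 CPM in control (2.20 ± 0.29, adjusted p = 0.00545). None of these calls held without UVB 1 or without control 0.

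Outside hair and immune genes, 3 falls with a small p had controls close together. Psd3 and Cyp26b1, given above, also had a small p but controls further apart. Slc9a9, an endosomal sodium and proton exchanger, was at 13.1 and 14 CPM in UVB and 72.2 and 76.8 CPM in control (log2 change -2.46 ± 0.30, edgeR adjusted p = 0.00414). Utrn, utrophin, which links the actin cytoskeleton to the membrane, was at 35.3 and 33.5 CPM in UVB and 118 and 104 CPM in control (-1.69 ± 0.20, adjusted p = 0.00407). Gpd2, the mitochondrial glycerol-3-phosphate dehydrogenase, was at 24.3 and 34.1 CPM in UVB and 77.7 and 82.3 CPM in control (-1.46 ± 0.21, adjusted p = 0.00853). The UVB libraries were also close together for Slc9a9 and Utrn, and further apart for Gpd2. Slc9a9 and Utrn lost their call without UVB 1 only and Gpd2 without control 0 only. Bambi, a decoy receptor for TGF-β family ligands, was at 1.18 and 1.62 CPM in UVB and 17.4 and 12.4 CPM in control (-3.39 ± 0.49, adjusted p = 0.00902), and Lrrc15, a leucine-rich repeat membrane protein, at 9.42 and 28.1 CPM in UVB and 459 and 164 CPM in control (-4.05 ± 0.95, adjusted p = 0.0469). Bambi and Lrrc15 kept their call only without control 1. Tesc, Myo1d, Smim18, Csdc2, Slc38a3, Rab11fip4, Capn8 and Gprc5d were further falls that stood out by size or p, at log2 changes of -1.63 to -5.19.

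The week 15 change was set beside those at week 2 and week 25, which have their own control libraries. Control 1 of week 2 was shallow, with 2905165 gene counts, against 5619514 to 7175363 in the other epidermis libraries. The part of this depth in the week 2 results was not tested. At week 2, 1090 genes were called higher and 1313 lower (8.09% and 9.74% of those tested), and at week 25, 1430 and 1468 (10.6% and 10.9%). Of the 250 genes higher at week 15, 145 (58.0%) were also called higher at week 2 and 214 (85.6%) at week 25, which is 13.3% of the week 2 list and 15.0% of the week 25 list. Of the 221 lower genes 181 (81.9%) were also lower at week 2 and 142 (64.3%) at week 25, or 13.8% and 9.67% of those lists. The genes raised at week 15 had a median log2 change of 1.65 at week 2 and 2.30 at week 25, and those lowered had -1.80 at week 2 and -1.29 at week 25. At all 3 weeks 122 genes were called higher and 117 lower. One gene, Dcn, which encodes the fibroblast proteoglycan decorin, was called lower at week 15 and higher at week 25 (-2.80 ± 0.67 and 2.16).

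**Figure D5:**
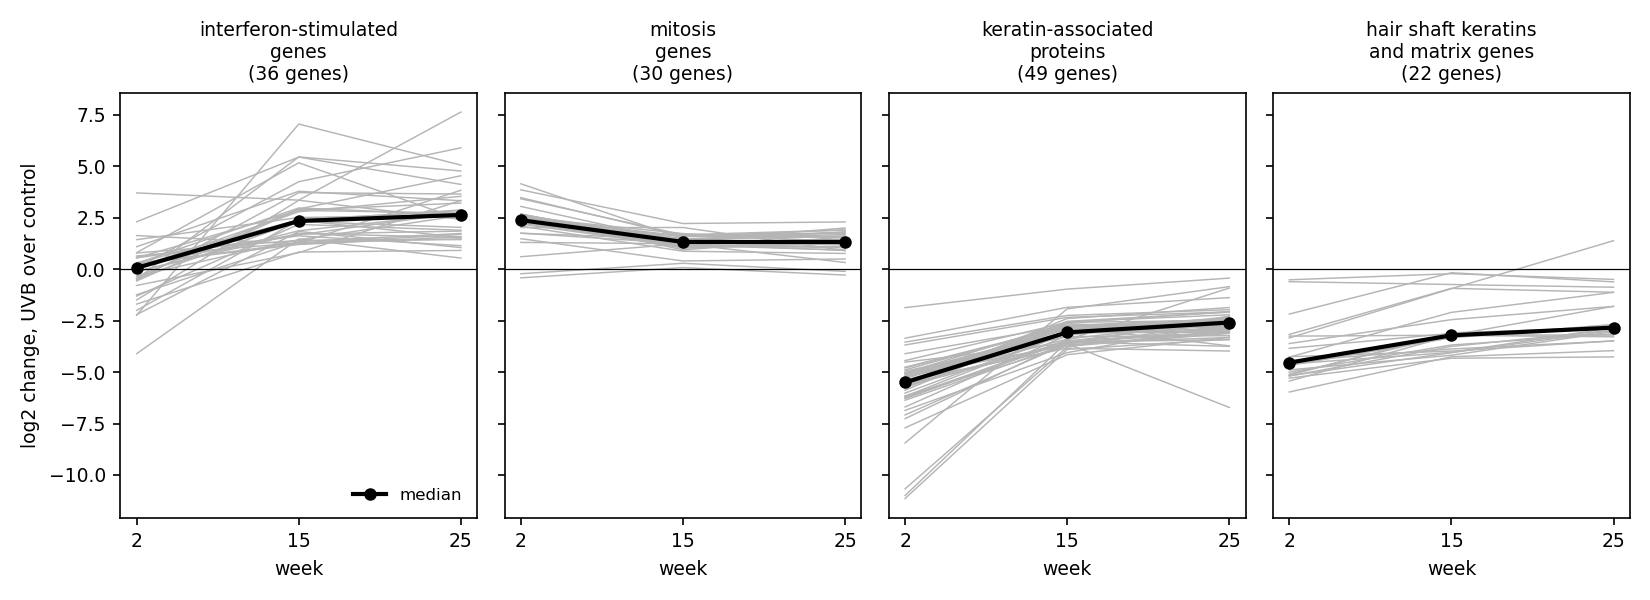
Log2 change with UVB at weeks 2, 15 and 25 for the tested genes of 4 lists (grey, 1 line per gene; black, the median of the list). The interferon-stimulated genes have medians of 0.06, 2.34 and 2.64 at the 3 weeks, mitosis genes 2.39, 1.33 and 1.32, keratin-associated proteins -5.50, -3.07 and -2.59, and hair shaft and matrix genes -4.54, -3.21 and -2.84.

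By gene group, the interferon-stimulated list had 2 members called higher at week 2, 16 at week 15 and 27 at week 25. The test of the difference itself gave an unadjusted p under 0.05 for a larger week 15 than week 2 change in 21 of its 36 genes and for a smaller one in none, against 4.59% and 4.24% of all tested genes. Against week 25 the same count was 1 larger and 1 smaller. The mitosis list ran the other way, with 26, 4 and 16 called at weeks 2, 15 and 25, and 9 of its 30 genes had an unadjusted p under 0.05 for a smaller change at week 15 than at week 2. The week 15 side of this rested on control 1, without which the list had 27 calls and a median of 2.25; DESeq2 called 20 and the fit with a replicate block 14. No difference between weeks passed adjustment over all tested genes, either against week 2 (0 called, 1190 genes at an unadjusted p under 0.05, smallest adjusted p = 0.205 by edgeR) or against week 25 (0 called, 1315 genes, smallest adjusted p = 0.179). DESeq2's Wald test called 50 and 63 differences, and the count against week 2 was 800 without control 0 of week 2.

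The genes with the smallest p for a difference from week 2 were Zbed6, Tiparp, Chil4, H2-M2, Gpd2 and Igfbp6. Chil4 had a log2 change of -1.47 at week 2, 8.75 at week 15 and 9.64 at week 25. Igfbp6 had 0.16, 4.21 and 4.22 at the same weeks, and Gpd2 had 0.27, -1.46 and -1.37. For these 3 genes the week 15 value lay near the week 25 value. Tiparp, a target of the aryl hydrocarbon receptor, had 1.45, -0.08 and -0.48. Against week 25 the smallest p belonged to Ago2, Trpv4, Banp, Hsph1, Cry1 and Mmp13. Mmp13, the collagenase of remodelling matrix, was at 1.77 and 2.94 CPM in UVB and 3.78 and 0.611 CPM in control at week 15 (0.16 ± 0.71), and had a log2 change of 6.45 at week 25. Ago2, the core slicer of RNA interference, had 1.59, 0.21 and -1.67 at weeks 2, 15 and 25, and the calcium channel Trpv4 had -0.86, -1.13 and 2.34. None of these differences between weeks passed adjustment.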

How the data were processed

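RNA from the samples was sequenced by the submitters and deposited as 1 table of raw gene counts. Per the submitters' processing notes the tools included HISAT2, Picard, featureCounts and DESeq2, and the genome build was mm10; no source used here gives versions, strandedness or read layout. The deposited counts were made by the authors from reads with duplicates removed, per the file headers, which lowers abundant short genes most. Values were used as deposited. From them edgeR 4.0.16 (R 4.3.3) computed TMM library sizes, CPM and the quasi-likelihood F test over the 12 epidermis libraries in 6 groups of 2 (2 libraries per group), after filterByExpr with a minimum count of 10. P-values were adjusted by Benjamini-Hochberg over all 13478 tested genes and called under 0.05. The fit had 6 residual degrees of freedom, and the biological coefficient of variation was 19.1%. The SE is the log2 change over the square root of F. The scripts were tested on simulated counts. Since nothing says that replicates came from separate animals, p-values measure the spread between these libraries, which may be technical.

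Lists and their members were chosen with earlier results of these data known, and no list is independent evidence. Genes were named by rule: the 15 largest rises and 15 largest falls among calls averaging 5 CPM or more whose arms were separate, without predicted gene models; the 8 smallest p in each direction; per list up to 4 members of smallest p; per marker list also the most abundant; and for each difference between weeks the 6 smallest p. Genes named beyond that rule, chosen after their values were seen, were Isg15, Irf7, Cdkn1a, Mdm2, Mki67, Krt6a, Krt16, Ccl2, Ccl6, Il33, Il1rn, Chil3, Oas1a, Oas1g, Bst2, Apaf1, Gtse1, Serpinb6c, Stfa1, Skint8 and Skint9, and called list members given by name only. Promoter windows came from RefSeq for GRCm38.p6, matched by symbol to 10217 of 13478 tested genes (75.8%). Alternatives were other scalings, filters, sets of libraries, a replicate block and DESeq2 1.42.0. Replicate numbers were not used as a pairing in the main fit. Results of some genes are not reported here.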

Additional observations from a re-analysis of the deposited data

How the results depend on the processing

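Of 471 genes called at week 15, the count was 480 with size factors of DESeq2 type, 504 with a filter at 1 CPM in both libraries of a group (13828 genes tested), 587 with a replicate block, 458 with only the 4 week 15 libraries and 410 with upper quartile scaling, which gave 248 higher and 162 lower (60.5% higher, against 53.1%). It was 1146 with no filter on low counts, 234 with all 16 libraries in 1 fit and 1006 by DESeq2's Wald test. Leaving out 1 library at a time gave 26 to 1463; of the other weeks' libraries, the count was 749 and 755 without control 0 and control 1 of week 2, and 247 and 249 without UVB 0 and UVB 1 of week 25. None of the 471 genes changed direction under these 20 alternatives, counting in each only the genes still tested. The alternatives reuse the same libraries, so a called gene was unlikely to change direction. The cause of these shifts was not tested.

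The number of differences called between week 15 and week 2 was 0 in the main comparison, 26 with no filter, 50 by DESeq2 and 0 to 800 when 1 library was left out (800 without control 0 and 2 without control 1 of week 2). Between week 15 and week 25 it was 0, with 15 for no filter, 63 for DESeq2, 1 for the replicate block and 0 to 1 when 1 library was left out.

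No source used here says whether the replicate number pairs UVB with control libraries. The deviations of libraries with the same number correlated at -0.09, -0.03 and 0.24 across genes at weeks 2, 15 and 25. With 2 libraries per group these values cannot settle whether the number is a pairing. Of the 471 calls, 397 were shared with the replicate block fit. Over 132 named genes and 20 alternatives, 2046 values kept their direction and side of the threshold, 578 fell below it, 7 rose above it and 7 turned sign. All 7 were of 1 result, the Cdkn1a log2 change, week 15, whose value of -0.01 became 0.0512 with upper quartile scaling, 0.000807 with no filter and 0.00232 with all 16 libraries, and lay between -0.0928 and 0.0944 when 1 library was left out. Counts of a few per library limit the scarce genes: the floor of 3 counts is 0.44 to 0.57 CPM in the week 15 libraries.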

Other observations

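Several programmes that UVB can touch gave no call at week 15. None of the 21 AP-1 and immediate early genes, 23 glycolysis and hypoxia genes, 19 circadian clock genes, 26 histone modifier genes, 13 EGFR family and ligand genes, 13 WNT genes, 9 NOTCH genes, 18 sebaceous lipid genes or 10 aryl hydrocarbon receptor and vitamin D genes tested was called in either direction by edgeR (5 higher and 20 lower at an unadjusted p under 0.05, and 0 higher and 8 lower by DESeq2, of 152), and their medians lay between -0.33 and 0.19 on the log2 scale. Of 23 NRF2 and antioxidant genes the extracellular superoxide dismutase Sod3 was called, at 36.3 and 27.2 CPM in UVB and 129 and 76.8 CPM in control (log2 change -1.69 ± 0.35, edgeR adjusted p = 0.0317). Of 18 S100 and antimicrobial genes S100a7a was called, at 1.77 and 4.99 CPM in UVB and 46.7 and 20.5 CPM in control (-3.30 ± 0.63, adjusted p = 0.026), while the alarmin gene S100a8 had overlapping arms at 60.6 and 49.7 CPM in UVB and 49.7 and 46.1 CPM in control. Both calls were lost without UVB 0, without UVB 1 and without control 0. Of the 471 called genes, 356 belonged to none of the lists, 178 higher and 178 lower.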
